A study of Mus musculus with 8 samples.

Results

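The 4 arrays of NMuMG-NT2197 cells carrying a wild-type ShcA cDNA were read as a profile of what these cells express against a common reference RNA. These are 4 of the 8 arrays of the series, and the comparison was made within each array, the cells in Cy3 over the reference in Cy5. Of 39429 probes that are not controls, 26060 had Cy3 or Cy5 well above background on each of the 4 arrays, and they give 19874 genes, 14766 of them with a symbol that is not a predicted name. All values below are log2 ratios of cells over reference unless named otherwise.

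NMuMG is a mouse mammary gland epithelial line, and the labels do not state what NT2197 denotes. Per the labels, the cells were transfected with a pMSCV/hygro vector carrying the ShcA cDNA, a retroviral backbone with hygromycin resistance, and they name no deletion of the cells' own gene. The labels name no clone, no culture passage and no separate origin for the 4 samples, so each p below measures only the spread between these samples, which may be technical. From 1 to 2.5 ng of total RNA, amplified linearly in 2 rounds, 5 µg of amplified RNA was labelled per array. The protocol speaks of microdissected material, while the samples are described as cells in culture. The reference is named mouse in one field and human in the labelling protocol. Neither conflict was settled here.

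Mammary epithelium has an inner layer of luminal cells, which carry simple keratins, tight junctions and, in part, hormone receptors, and an outer layer of contractile basal cells with stratified keratins and smooth muscle proteins. ShcA, the product of Shc1, is an adaptor that docks on phosphorylated receptor tyrosine kinases such as the ErbB receptors and links them to Grb2, Sos and the Ras to ERK cascade. A universal reference RNA is a pool from many cell types, so a ratio says how much more or less of a transcript the cells held than that pool did. A ratio below 0 can therefore belong to a transcript that the cells also express.

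Cy3 was above background by the scanner's criterion at 58.1% to 62.0% of spots and Cy5 at 67.6% to 71.5%, with 0 spots saturated. Cy3 was also the dimmer channel, with a median spot signal of 77.9 to 85 against 228 to 255 in Cy5. A gene dark in Cy3 is therefore not shown to be absent from the cells. The SD over the 4 arrays had a median of 0.115 over all genes. Dyes were not exchanged, so a preference of a probe for a dye and a difference between cells and reference cannot be told apart. The number of arrays, 4 of a single group against a reference with no replicates of its own, limits the precision.

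A gene was called where limma's moderated two-sided test of the mean against 0 gave a Benjamini-Hochberg adjusted p under 0.05 and the mean was at least 1 log2 from 0. By this rule 3425 genes were higher in the cells, or 17.2% of those tested, and 3589 were lower, or 18.1%. With no minimum fold, 17054 genes passed, or 85.8% (40.8% higher and 45.0% lower), so the size of a ratio carries more than its p. The median over all genes was −0.04. With each array centred on its median in place of the loess curve, that median was −0.40 and the calls were 2119 higher and 5464 lower, so that 27.9% of calls were higher against 48.8% here. The gene lists described next are read against these shares.

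The gene behind the label came out higher than the reference. Shc1, whose probe lies at 89233868 to 89233927 on chromosome 3 in mm9, had ratios of 0.99, 1.08, 1.16 and 1.20 on replicates 1 to 4. All 4 lay above 0 and within 0.3 of each other, with a mean of 1.11 ± 0.05 (SE, n = 4) or 2.16-fold (adjusted p = 3.40e-07). That mean fell to 0.83 with median centring, below the minimum fold, and it did not pass a test against the minimum fold itself (limma's treat). Whether this probe reads the introduced cDNA was not determined, so it does not check the label. Shc2, a relative first described in neurons, was higher at 3.20, 3.22, 3.40 and 3.19, with its other kept probe at 1.59. Shc4 was higher at 1.29 by its brighter probe and −0.21 by the other, and lost its call at 0.77 with normexp and 0.70 with median centring. Shc3 stood well above background in Cy3 on 0 arrays.

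Of the 25 tested genes of the list of Shc proteins, their docking partners and related adaptors, 5 were higher and 5 lower, against 3 lower with normexp in place of the negative controls as background and 3 higher with median centring. The guanine nucleotide exchange factor Sos2, which turns Ras on, was higher at 1.67, while Sos1 at 0.38, Grb2 at 0.06 (−1.13 by its other probe) and Ptpn11 at −0.34 did not reach a call. Gab3, a docking protein known from myeloid cells, was higher at 3.03, 3.19, 2.73 and 3.13 by its brighter probe and at a mean of 0.55, short of a call, by its other. The insulin receptor substrates were both lower, Irs1 at −1.62 (0.74 by its other probe) and Irs2 at −1.73, as was the docking protein Gab1 at −1.21, lost at −0.85 with normexp. Inpp5d, a lipid phosphatase of blood cells, was lower at −3.07 and well above background in Cy3 on 1 of 4 arrays. Grb10, an adaptor that restrains insulin signalling, was well above background in Cy5 on all 4 arrays and in Cy3 on none, which makes it at least 5.72-fold lower, a call lost at −0.87 with normexp. Such a bound sets the brighter channel against the higher, on each array, of the dim probe's own signal and the lowest signal still well above background in the dim channel, and is open to dye bias. In 1892 of the 1952 genes seen in Cy5 alone and 98 of the 165 in Cy3 alone, Grb10 among them, the probe's own signal was the higher on all 4 arrays, so that the bound equals the fitted fold.

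Of 10 tested ErbB ligands 4 were higher and 0 lower, with a median of 0.39. Of the 3 tested receptors 0 were higher and 1 was lower, with a median of −0.68; with median centring the list as a whole had 4 higher and 3 lower. Amphiregulin, Areg, a ligand of Egfr that drives ductal growth, had ratios of 3.99, 3.52, 3.69 and 3.79. All 4 arrays lay far above 0, highest on replicate 1, with a mean of 3.75 ± 0.08 (SE, n = 4) or 13.4-fold (adjusted p = 3.13e-09). The Egfr ligands Btc, Tgfa and Ereg were higher at 2.60, 2.50 and 1.84. Of the 4, Tgfa varied least, with an SD of 0.00399, while Btc was 2.72, 2.28, 2.69 and 2.70, lowest on replicate 2.

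Erbb2, the receptor that binds no ligand of its own, had ratios of −0.62, −0.65, −0.76 and −0.67. The mean of −0.68 ± 0.05 (SE, n = 4, adjusted p = 3.80e-06) lies below 0 on all 4 arrays but short of the minimum fold, and it was −1.03, past it, with median centring. Egfr was likewise below 0 on all 4 arrays, at −0.53 by its brightest probe and −1.24 and −1.32 by the other kept ones. With the mean of its probes Egfr was called lower, at −1.03, so whether it is called rests on the choice of probe. Erbb3, the partner that carries little kinase activity, was −1.06, and stood well above background in Cy3 on only 1 of 4 arrays. That value missed the minimum fold at −0.999 without replicate 1 and at −0.304 with normexp. Erbb4 and the neuregulin Nrg3 were well above background in neither channel on any array.

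**Figure D1:**
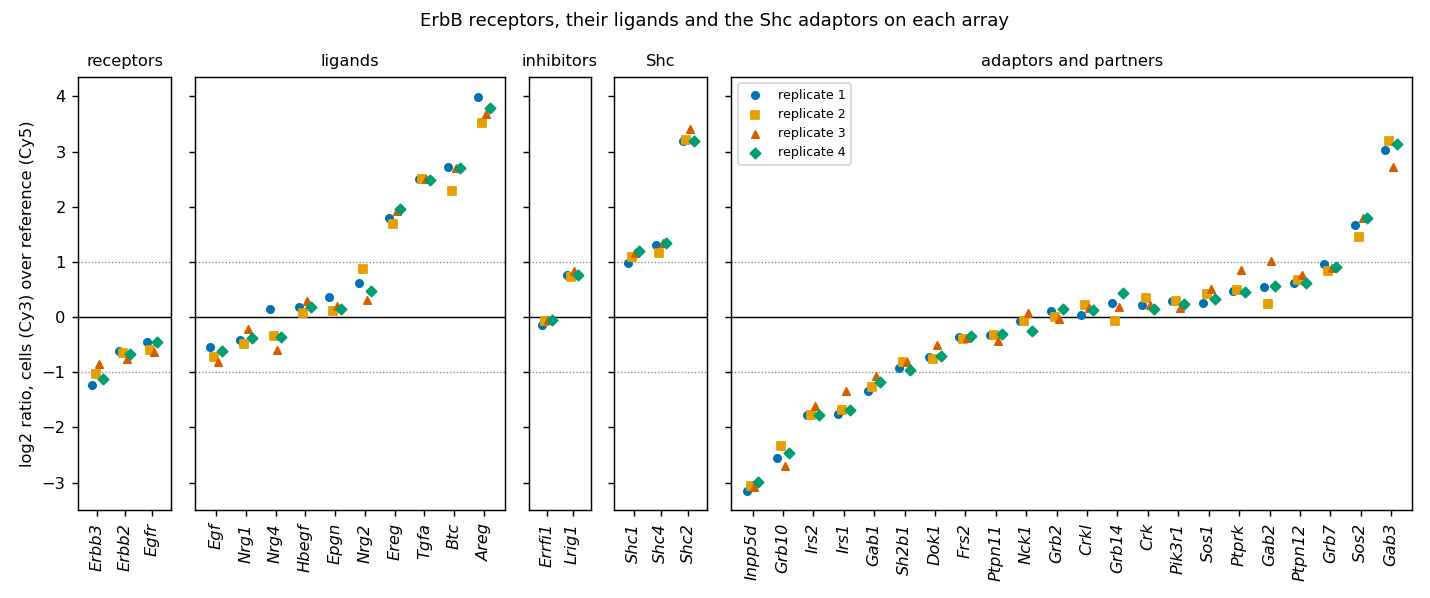
Log2 ratio of cells over reference for ErbB receptors, ligands and inhibitors, Shc genes, and their adaptors; each point is 1 of the 4 arrays, the solid line is 0 and the dotted lines are the minimum fold. Areg, Btc, Tgfa and Ereg lie above the upper dotted line on every array, whereas the points of Egfr and Erbb2 lie between 0 and the lower dotted line.

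Simple keratins, the filaments of single-layered epithelia, were mostly above the reference. Of 6 tested simple keratins 3 were higher and 1 lower, with a median of 1.27. Krt8 had ratios of 1.67, 1.66, 1.67 and 1.58 and its partner Krt18, with which it forms filaments, 1.97, 2.10, 1.97 and 1.99. The 4 arrays lay close together in both genes and all above 0, at means of 1.65 ± 0.05 and 2.01 ± 0.05 (SE, n = 4 each; adjusted p = 1.77e-08 and 7.43e-09). The other kept probe of Krt8 gave 2.94. Krt19 was higher at 2.07, and Krt20, a keratin of gut and bladder lining, was lower at −3.15. Krt7 at 0.87 missed the minimum fold, but was called higher at 1.11 with the deposited values.

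The 29 genes of the list of epithelial junction and surface proteins split. Of the 25 tested, 10 were higher and 8 lower, and the median of 0.02 turned to −0.28 with median centring. E-cadherin, Cdh1, the adhesion molecule of adherens junctions, had ratios of 4.90, 4.56, 4.65 and 4.80. All 4 arrays lay far above 0, with a mean of 4.73 ± 0.07 (SE, n = 4) or 26.5-fold (adjusted p = 4.20e-10), by a probe at 109193812 to 109193871 on chromosome 8. The desmosomal plaque protein Dsp was higher at 4.13, the tricellular junction receptor Lsr at 3.56 and the tight junction protein Ocln at 2.94.

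On the low side stood Epcam, the epithelial cell adhesion molecule, at −4.76, −5.03, −4.83 and −4.62. All 4 arrays lay far below 0, with a mean of −4.81 ± 0.07 (SE, n = 4), 28.1-fold lower (adjusted p = 5.41e-10). Epcam was still well above background in Cy3 on all 4 arrays. The membrane protease St14 was lower at −4.92, the scaffold Tjp3 at −3.43 and the claudin Cldn7, a known partner of Epcam, at −3.32. Each of these 4 lower genes was read by a single kept probe. Cldn1, Cldn3 and the desmocollin Dsc2 were well above background in neither channel on any array, and Cldn4 in Cy3 on none. With normexp the count of lower genes was 4.

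**Figure D2:**
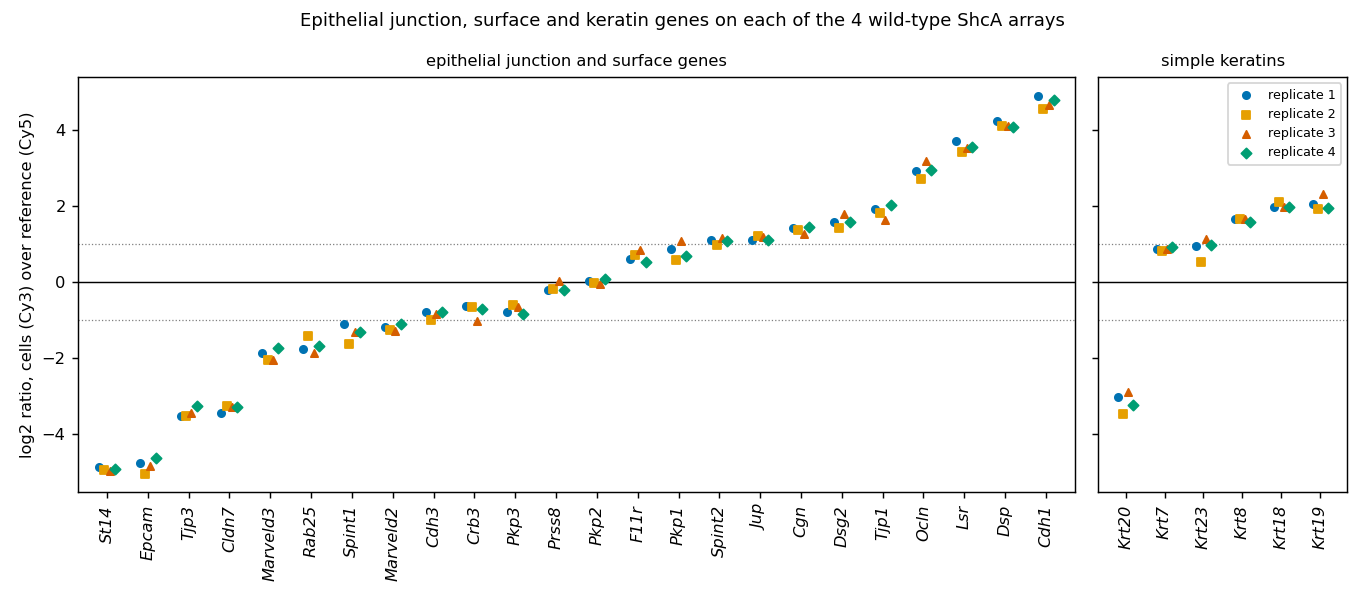
Log2 ratio of cells over reference for tested epithelial junction, surface and keratin genes, ordered by mean; each point is 1 of the 4 arrays, the solid line is 0 and the dotted lines are the minimum fold. St14 and Epcam lie near −5 and Cdh1 near 5, and the 4 points of most genes overlap.

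The stretches of 250 bases upstream of the RefSeq starts of Epcam and Lsr (GRCm38.p6) are shown because these genes of one list lie on opposite sides of 0 and both hold the E-box. Capitals mark the E-box CAGGTG on either strand, the sequence that Snai and Zeb repressors bind. Epcam on the + strand, chr17:87635729-87635978, holds 2.
Epcam: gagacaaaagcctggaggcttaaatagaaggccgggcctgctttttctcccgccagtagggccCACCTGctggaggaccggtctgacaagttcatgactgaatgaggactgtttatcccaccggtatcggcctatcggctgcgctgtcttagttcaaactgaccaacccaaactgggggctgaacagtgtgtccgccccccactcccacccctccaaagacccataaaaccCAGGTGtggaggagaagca
Lsr on the - strand, chr7:30973470-30973719, holds 4.
Lsr: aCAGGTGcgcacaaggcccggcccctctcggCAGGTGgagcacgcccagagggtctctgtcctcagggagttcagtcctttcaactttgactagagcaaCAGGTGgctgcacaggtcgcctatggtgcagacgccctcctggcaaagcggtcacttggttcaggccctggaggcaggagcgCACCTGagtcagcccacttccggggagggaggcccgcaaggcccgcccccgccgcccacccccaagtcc
Of the list's tested genes, 15 had a window in the RefSeq table, and 9 of these held the E-box, among them 3 of 7 higher and 4 of 6 lower genes. Of all 32851 windows of this length 17.2% held it. Members were counted by gene, as holding the string where any window of the gene did, whereas this share is by window. A match is a string of letters and says nothing of binding.

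Among 20 tested transcription and splicing regulators of epithelium 8 were higher and 4 lower. Sox9, a factor of progenitors, was higher at 3.38, 2.89, 3.58 and 3.44, lowest on replicate 2. The splicing factor Esrp2, which sets epithelial splice forms, was higher at 2.68, whereas its relative Esrp1 lay at −0.63 and did not reach a call. Klf4 and the pioneer factor Foxa1 were higher at 2.67 and 2.30. Trps1, a GATA-type repressor, and Tbx3, a factor of the mammary placode, were lower at −3.33 (−2.68 and −2.05 by its other probes) and −3.05, and Id4 was lower at −1.42, a call lost at −0.55 with normexp. With median centring this list had 6 higher and 7 lower.

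Of 10 tested luminal markers, of hormone-responsive, progenitor and secretory cells, 2 were higher (Areg and Foxa1) and 5 lower, and 2 lower with normexp. The oestrogen receptor Esr1 was −2.11, −2.09, −2.40 and −2.14 by its brightest probe, which was well above background in Cy5 on all 4 arrays and in Cy3 on none. Another of its 3 probes was well above background in both channels on all 4 arrays at −0.66, short of a call, and with normexp the gene was −0.78, so its call rests on the probe and the background. Gata3, the luminal master regulator, was −1.08, −1.40, −0.73 and −0.98. Its 4 values lay on both sides of the minimum fold, and the call was lost without replicate 2, at −0.929, and with normexp, at −0.729. Wnt4, a signal downstream of progesterone, was lower at −4.56 and the surface marker Ly6a at −1.44. Pgr was well above background on at most 1 array in each channel, and Elf5 and Prom1 on none.

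Of 18 listed milk genes 9 were well above background in Cy3 on all 4 arrays and 7 did not pass the filter. Csn1s1, Csn2, Glycam1 and Ltf were well above background in neither channel on any array, while Wap was so in Cy3 on 1 array. Of the 11 tested, 2 were higher, namely the lipid droplet coat protein Plin2 at 1.52 and the mucin Muc1 at 1.18, the latter lost at 0.62 with median centring and 0.80 with normexp. The kappa-casein gene Csn3 was 0.87, 0.44, 1.11 and 0.80, above 0 on all 4 arrays but short of a call. With the deposited values it was called higher, at 1.03. Spp1, osteopontin, was lower at −1.07, a call lost at −0.963 without replicate 1 and −0.985 without replicate 2.

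Of 14 tested basal and myoepithelial markers 0 were higher and 8 lower, with a median of −1.55. Smooth muscle actin, Acta2, had ratios of −6.38, −6.47, −6.48 and −6.65. All 4 lay far below 0 and close together, at a mean of −6.50 ± 0.06 (SE, n = 4) or 90.2-fold lower (adjusted p = 9.30e-11). The actin binding protein Tagln and the myosin light chain Myl9 were lower at −7.09 and −6.89. The basal keratin Krt14 was lower at −2.74, while Krt5 at 0.14 missed the threshold (adjusted p = 0.0559). The basal and stress keratins Krt17, Krt6b and Krt16 lay above 0 on all 4 arrays, at 0.74, 0.42 and 0.27, short of the minimum fold; with the scanner's ratio Krt17 and Krt6b were called higher, at 1.59 and 1.33. Trp63, the master regulator of basal cells, was 0.44 by its brightest probe, which is well above background in both channels on all 4 arrays. Its other 2 kept probes lay at −0.86 and −0.02 and were well above background in Cy3 on 0 arrays.

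The mesenchymal list was mostly low as well, with 2 higher and 11 lower of 18 tested and a median of −1.45, and 7 lower with normexp. Vimentin, Vim, the filament of mesenchymal cells and of many cultured lines, went the other way at 1.23, 1.64, 1.63 and 1.47. All 4 arrays lay past the minimum fold, lowest on replicate 1, with a mean of 1.49 ± 0.08 (SE, n = 4, adjusted p = 4.00e-07). N-cadherin, Cdh2, was higher at 1.06, and 0.79 with median centring. Fibronectin, Fn1, was −3.31, −3.62, −2.33 and −3.06, highest on replicate 3, with an SD of 0.55. The factors Snai2 and Zeb1, which repress E-cadherin, were lower at −1.82 and −1.07 (Zeb1 −0.94 and not called with normexp), while Snai1 at 0.39 and Zeb2 at 0.45 did not reach a call. Twist1 and Prrx1 were well above background in Cy3 on 0 arrays, the latter at least 15.7-fold lower.

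Markers of other cell types were mostly below the reference. Of 20 tested fibroblast and pericyte genes 20 were lower and 0 higher, with a median of −3.52, against 18.1% lower over all genes. Col3a1, the fibrillar collagen of loose connective tissue, had ratios of −8.60, −8.58, −8.20 and −8.39, and Col1a1 −8.27, −8.12, −8.06 and −8.09. All 8 of these values lay beyond −8, or 348-fold and 281-fold below the reference at their means (adjusted p = 9.05e-11 and 8.49e-11). Of the list's 21 genes, 13 were well above background in Cy3 on all 4 arrays by at least 1 probe, so low does not mean absent. Fewer cells of a type and less RNA per cell cannot be told apart in such bulk samples.

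Of 17 tested myeloid genes 12 were lower and 1 higher. The pan-leukocyte phosphatase Ptprc was −6.39, the macrophage receptor Csf1r −6.19 (−4.22 and −2.48 by its other probes) and the protease Ctss at least 247-fold lower. The exception was Mrc1, the mannose receptor of macrophages, at 4.72, 4.32, 4.27 and 4.51. All 4 arrays lay above 4, by a single probe at 14253273 to 14253332 on chromosome 2, while Cd163, another receptor of such cells, was well above background in neither channel. Lymphocyte genes had 8 lower and 0 higher of 13, with Cd3e at −4.33 and Cd79b at −6.58. Of 18 endothelial genes 11 did not pass the filter, among them Cdh5, Tek and Emcn, dark in both channels. Of the 7 tested, 3 were lower, 0 higher and 4 not called, with a median of −0.61. They ranged from Pecam1, lower at −3.18, up to 0.97. Adipocyte genes had 4 lower of 6, with Lpl at −6.76 (−4.97 by its other probe), and Adipoq was well above background in Cy3 on 0 arrays. Skeletal muscle genes had 5 lower of 9, with Acta1 at −4.88. With normexp the lymphocyte median moved from −1.91 to −0.589 and the muscle median from −2.40 to −0.964, both still below 0.

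Liver genes stood on the other side. Of 9 tested hepatocyte genes 6 were higher and 0 lower, with a median of 3.00; with median centring 6 were higher and 3 lower. Apob, the protein of lipoprotein particles, had ratios of 5.59, 5.25, 5.34 and 5.46, with its other kept probe at 2.42. All 4 arrays lay above 5, highest on replicate 1, at a mean of 5.41 ± 0.07 (SE, n = 4, adjusted p = 2.37e-10). The retinol carrier Rbp4 was higher at 5.24, the transcription factor Hnf4a at 4.03, the antitrypsin gene Serpina1a at 3.00 (1.79 by its other probe) and the iron carrier Trf at 2.96. The defining hepatocyte products Alb, Ttr and Apoa1 were well above background in neither channel on any array, as were Fgb and Fgg, and Afp at −0.83 did not reach a call. Of the 9 tested genes 8 were highest on replicate 1. The part of liver-type cells in these values was not tested.

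Of 16 listed pluripotency and germ cell genes 7 did not pass the filter, and of the 9 tested 2 were higher and 2 lower; Pou5f1 was well above background on at most 1 array in each channel. Dppa5a was higher at 3.22 and Sox2 at 1.02, the latter well above background in Cy3 alone and lost at 0.20 with normexp, at 0.96 with median centring and at 0.908 without replicate 1. Dnmt3l was lower at −3.71. The erythroid and neural lists had 1 higher and 2 lower each, of 5 and of 9 tested; the transferrin receptor Tfrc, which proliferating cells also carry, was higher at 2.41 (1.12 and 0.87 by its other probes), the microtubule protein Map2 at 2.76, and the globin Hba-a1 was lower at −3.23.

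**Figure D3:**
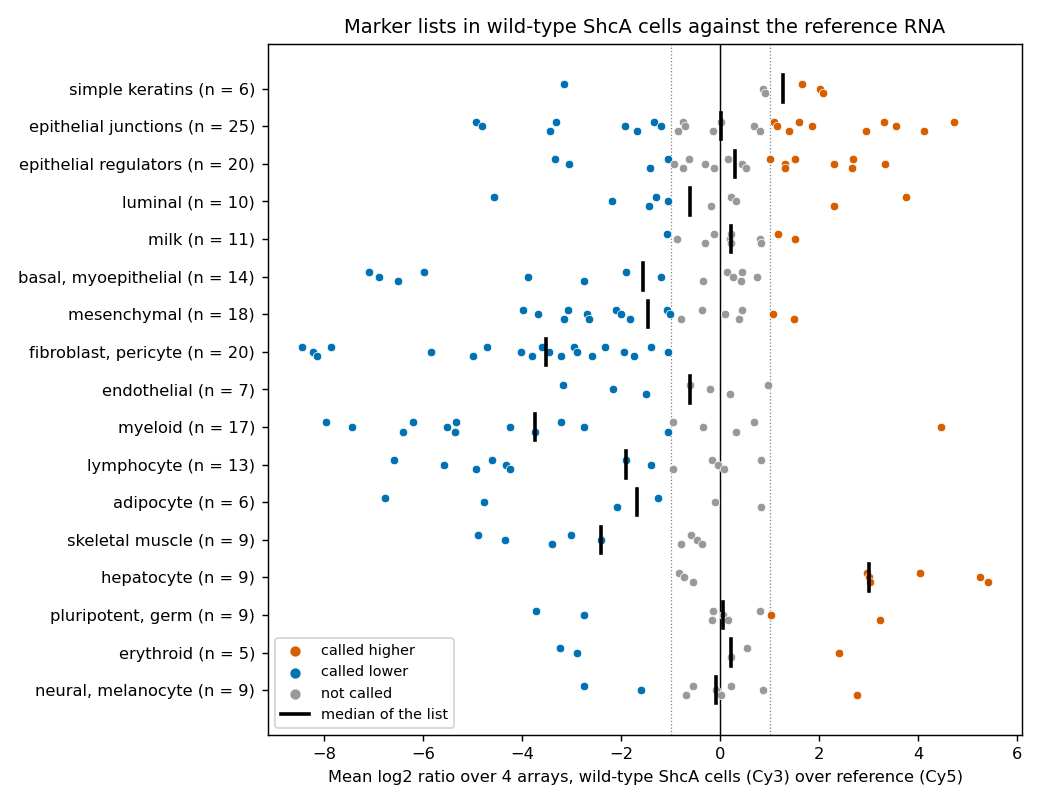
Mean log2 ratio over 4 arrays for each tested gene of the marker lists (points, coloured by call), with the median of each list as a black bar; the solid line is 0 and the dotted lines are the minimum fold. All 20 fibroblast and pericyte points lie left of the lower dotted line, and 6 of 9 hepatocyte points lie right of the upper.

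Integrins join cells to the matrix. Of 22 tested integrin list genes 4 were higher and 8 lower. The hemidesmosome subunit Itgb4 was higher at 3.60, 3.39, 3.50 and 3.60, and the laminin and collagen receptor subunits Itga3 and Itga2 at 2.63 and 2.24, with Itga2 well above background in Cy5 on 1 array and lost at 0.62 with normexp. Of the subunits known from leukocytes, Itgb2 was lower at −4.39, Itgal at −3.59 (−3.55 and −0.31 by its other probes) and Itga4 at least 13.6-fold. Itgb7 was higher at 1.14 (0.871 and not called with median centring). Itgam was 0.68 by its brightest probe, not called, and −0.18 and −1.24 by the other kept ones, so its direction depends on the probe. The subunits that pair in the fibronectin receptor, Itga5 at −0.48 and Itgb1 at −0.41, did not reach a call.

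Of 24 tested basement membrane genes 5 were higher and 8 lower. Lamb3, a subunit of the laminin that Itgb4 binds, was higher at 3.99, 3.61, 3.95 and 3.98. Col18a1 and Lama5 were higher at 2.26 and 1.47. The linkers Nid1 and Nid2 were lower at −4.17 (−0.92 and −5.41 by its other probes) and −4.61, Lamb1 at −3.30, and Col4a5 at least 47.8-fold. Col4a1 at 0.10 and Col4a2 at −0.03 lay near 0.

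Secreted proteases and their inhibitors, which remodel the matrix, had 6 higher and 10 lower of 23 tested. The collagenase Mmp13 had ratios of 5.08, 4.62, 5.45 and 5.12, highest on replicate 3 and lowest on replicate 2. All lay above 4.6, at a mean of 5.07 ± 0.12 (SE, n = 4) or 33.5-fold (adjusted p = 5.42e-09). The stromelysin Mmp10 was higher at 4.33 and the serpin Serpinb5, known as maspin, at 4.13. Mmp2, a gelatinase of stromal cells, was lower at −4.76, the inhibitor Timp3 at −4.40 and Adamts1 at −4.31.

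The windows upstream of Mmp13 and Mmp10 are shown because these were the highest of the list and lie near each other on chromosome 9; capitals mark the AP-1 site TGAGTCA on either strand, which Fos and Jun dimers bind. Mmp13 on the + strand, chr9:7272264-7272513, holds 1, and Mmp10 on the + strand, chr9:7502092-7502341, holds 1.
Mmp13: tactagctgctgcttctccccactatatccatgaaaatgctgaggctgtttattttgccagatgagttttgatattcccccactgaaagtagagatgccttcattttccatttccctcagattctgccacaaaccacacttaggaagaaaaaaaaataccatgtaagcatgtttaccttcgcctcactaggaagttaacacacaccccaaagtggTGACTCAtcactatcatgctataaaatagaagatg
Mmp10: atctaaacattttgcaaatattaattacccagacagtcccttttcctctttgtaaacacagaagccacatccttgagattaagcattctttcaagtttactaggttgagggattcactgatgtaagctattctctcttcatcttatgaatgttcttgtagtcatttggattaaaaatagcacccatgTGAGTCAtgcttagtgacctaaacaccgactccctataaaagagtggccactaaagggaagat
Of 17 members with a window 5 held the site, 3 of 6 higher and 2 of 7 lower genes, against 4.46% of all windows. Members are again counted by gene and that share by window.

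Interferon-induced genes were low in the cells. Of 24 tested, 19 were lower and 0 higher, with a median of −2.08. The immunoproteasome subunit Psmb8 had ratios of −6.56, −6.10, −6.48 and −6.47. All 4 lay beyond −6, at a mean of −6.40 ± 0.08 (SE, n = 4) or 84.6-fold lower (adjusted p = 2.51e-10). Its neighbours in the same genomic block, Psmb9 and the peptide transporter Tap1, were lower at −6.14 and −4.16. The other kept probe of Psmb9 lay at −0.38, short of a call, and was well above background in Cy3 on 0 arrays. Isg15, an ubiquitin-like modifier, was −2.60, −2.45, −2.53 and −2.57, and the RNA binding protein Ifit3 −2.78, −2.68, −2.72 and −2.47. For these probes all 4 arrays lay below −2, but the other kept probe of Isg15 lay at −0.96, short of a call. The signal transducer Stat2 at −0.29 and Irf9 at −0.69, which relay the signal, did not reach a call.

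The windows upstream of Isg15 and Ifit3 are shown because both genes are textbook targets of interferon; capitals mark the core of the interferon-stimulated response element on either strand, the letters GAAA, any 2 bases and GAAA again. Isg15 on the - strand, chr4:156200819-156201068, holds 3 overlapping matches, and Ifit3 on the + strand, chr19:34583279-34583528, holds 2.
Isg15: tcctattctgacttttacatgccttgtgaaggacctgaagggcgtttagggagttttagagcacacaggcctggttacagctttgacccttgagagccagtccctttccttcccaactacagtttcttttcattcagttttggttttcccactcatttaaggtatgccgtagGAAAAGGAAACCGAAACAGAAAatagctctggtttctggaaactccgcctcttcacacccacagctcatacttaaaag
Ifit3: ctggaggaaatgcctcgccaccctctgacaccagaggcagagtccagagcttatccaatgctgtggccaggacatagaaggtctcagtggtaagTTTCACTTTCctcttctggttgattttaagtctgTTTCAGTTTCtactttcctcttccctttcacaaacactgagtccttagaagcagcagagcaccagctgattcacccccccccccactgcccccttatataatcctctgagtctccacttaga
Of 20 members with a window 7 held the element, 5 of 16 lower genes and 2 of 4 that were not called, against 2.98% of all windows. Here too members are counted by gene and the share by window.

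Antigen presentation was low too, with 10 lower and 0 higher of 13 tested and a median of −2.25. Cd74, the invariant chain of class II, was lower at −5.72 and Tap2 at −5.24. The class I heavy chains H2-K1 and H2-D1 were lower at −2.25 and −2.16, while their light chain B2m lay at 0.22. Heavy chain genes are near-identical copies that probes may not separate.

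Chemokines and cytokines went both ways, 11 higher and 10 lower of 26. Cxcl5, which draws neutrophils, had ratios of 5.49, 5.45, 5.31 and 5.61. All 4 lay above 5, at a mean of 5.46 ± 0.06 (SE, n = 4, adjusted p = 1.57e-10). Cxcl1 and Cxcl16 were higher at 2.99 and 2.77, and the colony stimulating factor Csf2 at 2.53. Cxcl12, a chemokine of stromal cells, was at least 301-fold lower by its brighter probe, dark in Cy3 on all 4 arrays, and −7.20 by the other, well above background in Cy3 on 1. Tnf was at least 9.53-fold lower, and Tslp was lower at −3.68.

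Growth factors and receptors outside the ErbB family had 6 higher and 12 lower of 30, and 5 and 5 with normexp. The receptor Mst1r, the growth factor Fgf1 and the ligand of Kit, Kitl, were higher at 2.23, 2.18 and 1.89, with Mst1r lost at 0.95 with normexp. Fgf7, a stromal signal to epithelium, was lower at −6.16, the collagen receptor Ddr2 at −5.90 (−2.93 by its other probe) and Gas6 at −4.43. Met and Igf1r, receptors of many epithelial cells, lay at −1.26, which was called lower but lost at −0.69 with normexp, and −0.74, which was not.

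Targets of the ERK cascade went both ways. Of 24 tested, 6 were higher and 10 lower. The immediate early genes Fos, Fosb and Egr1 were lower, Fos at −3.91, −4.35, −3.20 and −3.87, Fosb at −3.97 and Egr1 at −3.75. Fos was highest on replicate 3 and lowest on replicate 2. Ier3, Phlda1 and the phosphatase Dusp4 were higher at 2.69, 1.71 and 1.61, and Fosl1 at 1.13, lost at 0.84 with median centring. The ETS factor Etv1 was lower at −5.23 (−0.49 by its other probe), while Dusp6 at −0.39 and Ccnd1 at 0.17 did not reach a call. With median centring 3 genes of the list were higher.

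The TGF-beta and BMP list had 7 higher and 9 lower of 26. Bmp2 was higher at 4.98, 4.15, 4.85 and 4.97, lowest on replicate 2 and well above background in Cy5 on 1 array. Id1, a target of BMP signals, was higher at 4.23 and Id3, another, was lower at −2.94. The receptor Tgfbr1 was higher at 3.27, with its other kept probes at 0.91 and −0.13, the inhibitor Smad7 was higher at 3.27, and the co-receptor Tgfbr3 and the ligand Tgfb2 were lower at −3.42 and −3.08. Wnt genes had 2 higher and 16 lower of 28, with a median of −1.31, and 9 lower with normexp. Wnt7b was higher at 3.93, 3.60, 3.69 and 3.79 and Wnt7a at 2.01, the latter lost at 0.69 with normexp. The antagonist Sfrp2 was lower at −5.30 and Wnt10a at −3.70, and 15 of the 36 listed genes were well above background in Cy3 on 0 arrays.

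Of 24 tested cell cycle genes 2 were higher, 5 lower and 17 not called; with median centring 9 were lower. Cdk1 was 3.12 by its brighter probe and −0.28 by the other, so its call rests on the choice of probe. Mcm2 was higher at 1.06, lost at 0.987 without replicate 4 and at 0.76 with median centring, and E2f1, Cdk2 and Rb1 were lower at −1.40, −1.62 and −1.37. Mki67 at 0.20, Top2a at −0.42 and Plk1 at −0.27 were not called. Of 12 D-type cyclins, inhibitors and p53 genes 2 were higher and 6 lower, with the inhibitor Cdkn2b at 2.36, Cdkn1b at 1.15 (0.77 and not called with median centring), Ccnd2 at −1.63 and Cdkn2c at −1.83.

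Hypoxia and glycolysis genes had 2 higher and 13 lower of 26, with a median of −0.93. The peptide hormone Adm was lower at −5.95, −6.33, −6.21 and −5.90, the carbonic anhydrase Car12 at −3.84 and Bnip3 at −2.91 (−1.84 and −1.14 by its other probes). Hk2 was higher at 1.11, lost at 0.83 with median centring. Hk1 was higher at 1.79 by its brightest probe, which the files place on chromosome 5, and 0.10 and −0.11 by those on chromosome 10, so its call rests on the probe. Detoxification genes were split, 5 higher and 5 lower of 20, and 3 and 7 with median centring. The glutathione synthesis subunit Gclm and the cystine carrier Slc7a11 were higher at 2.57 and 1.97 and Gsta1 at 3.00, whereas Nqo1, Gsta3 and Gstm2 were lower at −5.54, −5.69 and −2.47. Some glutathione transferases are near-identical copies, so the assignment of Gsta1 and Gsta3 is uncertain, though both kept probes of Gsta3 gave −5.69.

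Commonly used control genes were not all level. Of 16, 11 were not called, among them Hprt at 0.24, Tbp at 0.05 and Ppia at 0.40. Actb was lower at −1.02, −1.05, −0.99 and −1.01, with an SD of 0.0245, but −0.66 with the scanner's ratio and −0.77 in the deposited values, short of a call in both. Gusb was lower at −1.78, and Pgk1 at −2.13 by a single kept probe, which the file places on chromosome 3. Tuba1a was higher at 1.64 by a probe placed on chromosome 12 and 1.91 by its other, on chromosome 15. Whether these probes of Pgk1 and Tuba1a read the genes themselves was not determined. Gapdh was −0.16 by the brightest of its 8 kept probes, which the file places on chromosome X, away from the gene on chromosome 6; the 8 ranged from −1.90 to −0.16.

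Hox genes, which mark position along the body axis, were low. Of 32 tested 24 were lower and 0 higher, with a median of −2.24, and 26 of the 39 listed were well above background in Cy3 on 0 arrays. The clusters were not alike. All 9 tested Hoxb genes were lower, with a median of −2.31, all 5 Hoxd genes, with a median of −3.27, and 6 of 8 Hoxc genes, with a median of −3.13. Of 10 Hoxa genes 4 were lower, with a median of −0.60, and Hoxa7 was the highest of all, at 0.87, 0.50, 0.52 and 0.85. Hoxc6 was lower at −6.58, −6.58, −6.76 and −6.49, and Hoxc4 and Hoxc9 were at least 42.9-fold and 41.6-fold lower. By the probe used, Cy3 was well above background on 0 arrays in 6 of 9 Hoxb, 6 of 8 Hoxc and 5 of 5 Hoxd genes. That held for 2 of 10 Hoxa genes. The medians of the Hoxb, Hoxc and Hoxd clusters thus rest largely on bounds, and the difference between clusters was not tested. With normexp 15 of the 32 were lower.

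**Figure D4:**
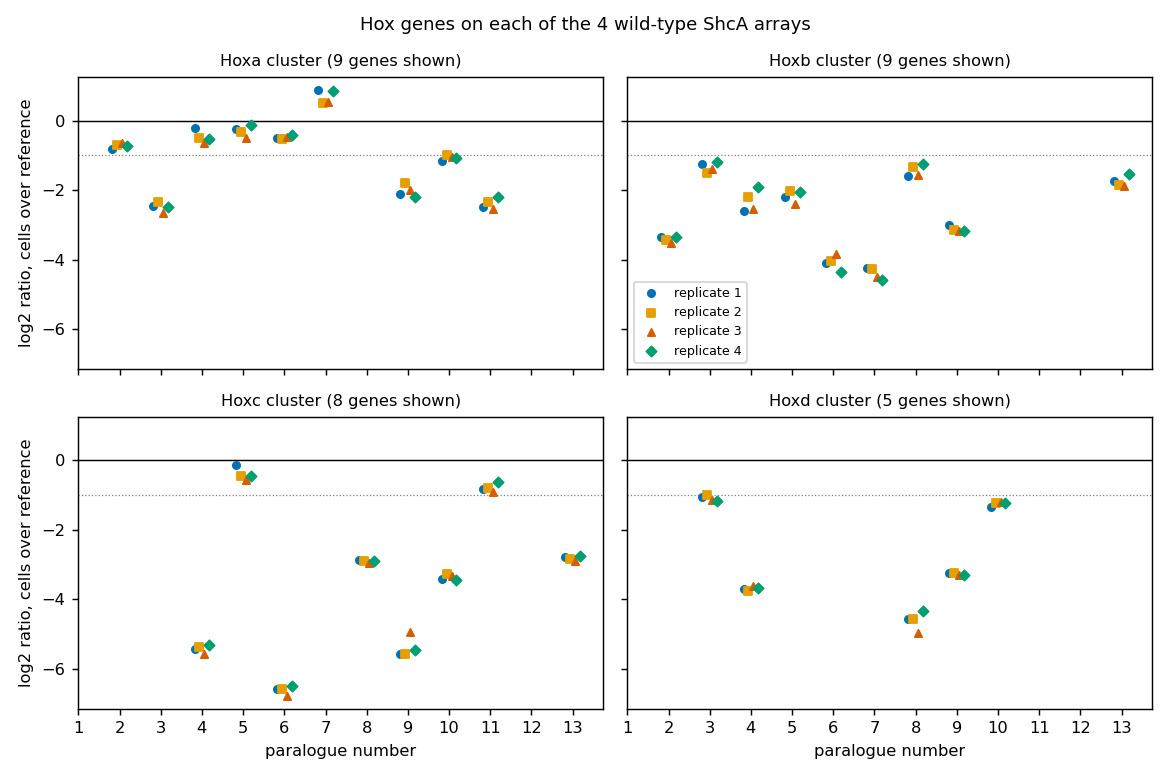
Log2 ratio of cells over reference for tested Hox genes by cluster and paralogue number; each point is 1 of the 4 arrays, the solid line is 0 and the dotted line is the minimum fold. The Hoxb points all lie below the dotted line and the Hoxd points at or below it, and those of Hoxa2, Hoxa4, Hoxa5, Hoxa6 and Hoxa7 lie above it.

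Most imprinted genes were low. Of 17 tested 14 were lower and 1 higher, with a median of −2.52; with normexp 7 were lower. Dlk1, a Notch-like membrane protein of fetal tissue, was −8.31, −8.19, −8.44 and −8.44 (a mean of −5.68 by its other probe) and the noncoding H19 −5.30. Phlda2, a placental growth restrictor, was higher at 4.31, 3.92, 4.25 and 3.95. Plagl1 was −5.61 by its brightest probe, well above background in Cy3 on 1 array, and −4.44, −0.21 and 0.12 by the 3 other kept probes, so its direction depends on the probe. Among genes of the sex chromosomes Xist, the RNA of the inactive X, was 2.89, 3.09, 2.82 and 2.89 by a probe at 100656289 to 100656348 on chromosome X, and a mean of 0.35 by its second probe, well above background in both channels on all 4 arrays as well; without replicate 3 the second is the brighter and the value is 0.367. The Y-linked Ddx3y and Eif2s3y were well above background in Cy5 on all 4 arrays and in Cy3 on none, at least 19.8-fold and 7.78-fold lower.

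Over the whole table the highest ratios with both channels well above background on all 4 arrays were led by genes of epithelial lining. Sprr1b, a crosslinked protein of the cornified envelope, had the highest mean, with ratios of 6.96, 6.27, 6.57 and 6.66. Vsig1, an adhesion protein of stomach lining, followed at 6.39, 6.05, 5.96 and 6.32. In both, replicate 1 was highest and all 4 arrays lay above 5.9, at means of 6.62 ± 0.10 and 6.18 ± 0.08 (SE, n = 4 each; adjusted p = 6.56e-10 and 3.15e-10). Plscr2, Khdrbs3, Tspan12, Dynap, Rassf6, Cxcl5, Apob and Anxa10 made up the rest of the 10, between 5.35 and 5.57. The 10 lowest ran from Col3a1 at −8.44 through Fstl1, Dlk1, Col1a2, Col1a1, Dcn, Tmem45a, Fcer1g and Bgn to Ogn at −7.36. Of these, Col1a1, Col1a2, Col3a1, Dcn, Bgn and Ogn encode collagens and proteoglycans of connective tissue.

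Some transcripts were seen on one side only. Cy3 alone was well above background on all 4 arrays for 165 genes, or 0.830% of those tested, and Cy5 alone for 1952, or 9.82%. Spots were dimmer in Cy3 than in Cy5, and the part of this in the difference between these counts was not tested. On the Cy3 side Elmod1 was at least 29.9-fold higher, Fstl5 at least 22.5-fold and the protease-activated receptor F2rl1 at least 14.9-fold. The following genes were Hs3st5, Aff4, Vmn2r78, Dnase1 and Ccdc3, between 6.19-fold and 10.4-fold as lower bounds; Aff4, Vmn2r78, Dnase1 and Ccdc3 lost their calls with normexp, at 0.82 to 0.91. On the Cy5 side Cxcl12 and Ctss were followed by Prdx4 and Rpl39l, at least 107-fold and 104-fold lower, and by Tspan6, Tnfrsf13b, Esm1 and Cyfip2, at least 60-fold to 96.3-fold. Other kept probes gave −2.02 for Prdx4 and −1.99 and −3.05 for Tnfrsf13b. The Tnfrsf13b probe at −1.99 was well above background in Cy3 on all 4 arrays, so that gene is not dark in the cells.

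The 4 arrays were close to each other but not equally so. Across genes, which are not independent, Pearson's r between 2 arrays ran from 0.985 for replicates 2 and 3, which share a slide, to 0.996 for replicates 1 and 4, on other slides. The median absolute difference was 0.14 and 0.0623 in these pairs, and 0.155 for replicates 3 and 4. Replicates 2 and 3 lay on opposite sides of the mean in some groups of genes. Of the 24 cell cycle genes, 21 were lowest on replicate 3 and 17 highest on replicate 2, against 7131 and 4468 of all 19874 genes. Of the 26 hypoxia and glycolysis genes 20 were highest on replicate 3 and 15 lowest on replicate 2, and of the 24 ERK targets 19 and 17, against 5840 and 6080 of all genes. The median member of the cell cycle list lay 0.277 below its own mean on replicate 3 and 0.188 above it on replicate 2. Of 32 stress response genes, a list drawn up after values were seen, 31 were highest on replicate 3 and 27 lowest on replicate 2. These lists were looked at because their members' order stood out, and no test was made among replicates of a single group.

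**Figure D5:**
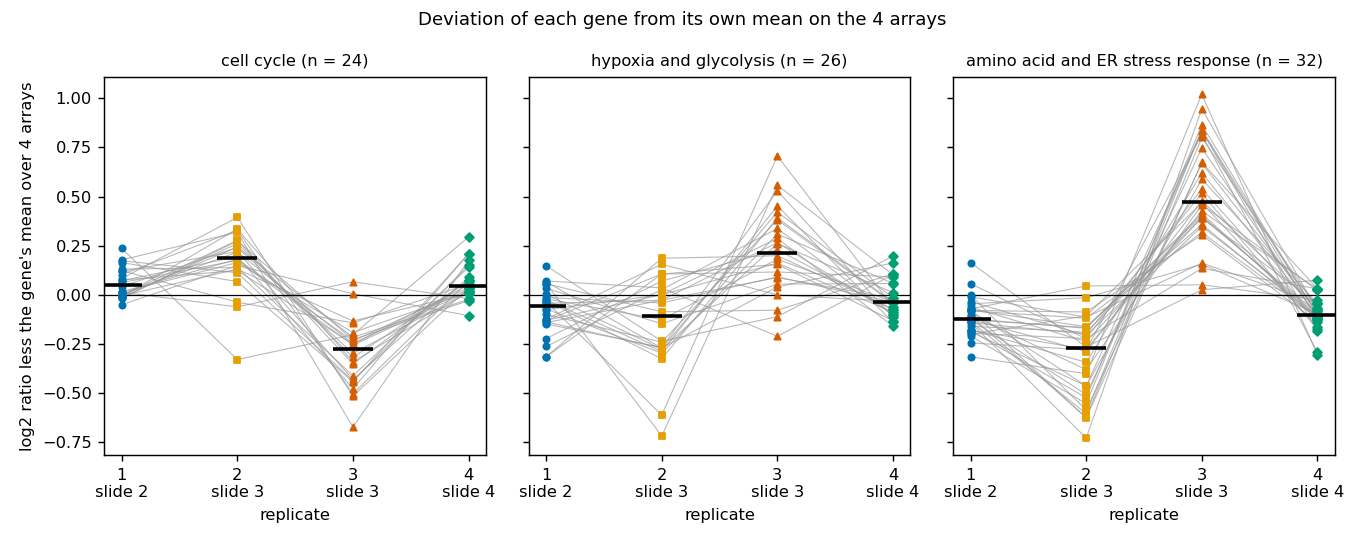
Log2 ratio less the gene's own mean over the 4 arrays, for the genes of the cell cycle, the hypoxia and glycolysis and the stress response lists; grey lines join the values of 1 gene, coloured points are arrays and black bars are medians. The median of replicate 3 lies lowest in the cell cycle list and highest in the other lists, and that of replicate 2, on the same slide, lies on the other side of 0.

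The genes with the largest SD show where 1 array sets a value. D1Ertd448e was 0.70, 0.64, 0.66 and 3.52, so that replicate 4 stands alone, and its mean without it was 0.667, short of a call; it also lost its call with normexp, with no background correction, with median centring and with the scanner's ratio. Pde4a, a cyclic AMP phosphodiesterase, was −2.37, −4.47, −2.40 and −2.34, with replicate 2 apart, and a mean of −1.09 by its other probe. Phex was −0.46, −0.56, −0.62 and −2.15, with replicate 4 apart, and not called, though leaving out any of the other replicates brought it past the minimum fold, between −1.06 and −1.11. Selenbp1 at −3.20, −3.98, −2.14 and −3.07 and the chemokine Ccl4 at −2.63, −0.96, −1.31 and −1.45 were called lower.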

How the data were processed

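RNA of 4 wild-type ShcA samples in Cy3 was hybridised with a common reference in Cy5, 1 array each, on 3 slides (replicates 2 and 3 share one). Spot intensities are as deposited, raw mean and background signals of Agilent Feature Extraction 9.5.3.1, per the file headers. The scanner's log10 ratio, red over green, and the series' log2 value table, of which 4 columns of other samples were not used, are the authors' deposited values and served as alternatives. The table's scale, centring and direction are not given in the sources used here. It correlated with the scanner's ratio, turned to Cy3 over Cy5, at 0.902 to 0.924, with slopes of 0.657 to 0.702 and column medians of 0.0526 to 0.0617, which bears out the direction; its scale and centring stay unknown.

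With limma 3.58.1 in R 4.3.3, local background was subtracted from each mean signal and the remaining background was modelled from 153 negative control spots by a normexp convolution with an offset of 50. Arrays were loess normalized with control spots at weight 0. Spots of a probe were averaged, and the brightest kept probe stood for a gene. The mean of 4 arrays was tested against 0 with lmFit and eBayes, adjusted by Benjamini-Hochberg. "Normexp" in the text means the same convolution with the background estimated from all spots, without the negative controls. That estimate fell between −556 and −101 in every array and channel, whereas the controls' own median signal fell between 11.2 and 17.1. A call lost with normexp therefore shows dependence on this low background estimate, and does not by itself overturn the call. Symbols come from the files, updated for RefSeq accessions (26761 of 28389 matched); probe coordinates are those of the files, mm9, and whether a probe lies in an exon or UTR was not determined.

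The members and lists were chosen with earlier results of these data known. Named genes are a set of marker genes, the 10 highest and 10 lowest ratios, the 8 largest bounds on each side, up to 3 called members of each list in each direction, and the 5 with the largest SD; other list members named were chosen after their values were seen. Some tested genes are counted in their lists but not reported here by name or drawn in the plots by gene. On simulated data, 200 changed genes among 19874, by 1.5 or 3 log2, were recovered at 100% with 0 false calls, with no array effects simulated. Unchanged genes were drawn around 0 with their own SD and the changes lay past the minimum fold, so this outcome was nearly fixed beforehand. It checks only that the calling rule runs, and cannot speak to dye bias, probe choice, background or centring.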

Additional observations from a re-analysis of the deposited data

Results flagged for a closer look

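In the following genes 1 of the 4 arrays stood apart, with a gap to its nearest neighbour that took up most of the range (Dixon's test). They are 27 of the 259 genes with 4 values named here. For a gene picked beforehand, chance alone gives about 1 in 20. The named genes were picked from these same values, some for their large SD, and genes on the same arrays are not independent. No excess over chance can therefore be read from this count, and the share over all genes was not computed. Replicate 1 stood apart from the range of the others in log2 ratio for Prrx1 at −3.61 against −4.12 to −4.06. Replicate 2 stood apart from the range of the others in log2 ratio for Bmp2 at 4.15 against 4.85 to 4.98, Btc at 2.28 against 2.69 to 2.72, Dnmt3l at −3.91 against −3.67 to −3.63 and Gusb at −1.64 against −1.83 to −1.82. It also did so for Klf4 at 2.39 against 2.75 to 2.78, Krt18 at 2.1 against 1.97 to 1.98, Lamb3 at 3.61 against 3.95 to 3.99 and Pde4a at −4.47 against −2.4 to −2.34. The same array differed in Plscr2 at 5.12 against 5.66 to 5.76 and Timp3 at −4.72 against −4.31 to −4.26. Replicate 3 stood apart from the range of the others in log2 ratio for Ccnd2 at −1.29 against −1.76 to −1.73, Esr1 at −2.4 against −2.14 to −2.09, Fgf7 at −6.5 against −6.09 to −6.01 and Gsta3 at −5.9 against −5.65 to −5.6. It also did so for Hoxc9 at −4.93 against −5.57 to −5.46, Hprt at 0.129 against 0.267 to 0.282, Irs2 at −1.62 against −1.78 to −1.77, Itga5 at −0.229 against −0.584 to −0.546 and Itgb7 at 1.31 against 1.08 to 1.09. The same array differed in Lama5 at 1.8 against 1.34 to 1.38, Shc2 at 3.4 against 3.19 to 3.22, Tbp at −0.114 against 0.088 to 0.123 and Tfrc at 2 against 2.51 to 2.57. Replicate 4 stood apart from the range of the others in log2 ratio for D1Ertd448e at 3.52 against 0.64 to 0.696, Krt8 at 1.58 against 1.66 to 1.67 and Phex at −2.15 against −0.623 to −0.461. Replicates 2 and 3, which share a slide, were the array apart in 10 and 13 of these genes.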

How the results depend on the processing

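Of 214 called genes named in the text, 0 came out called in the other direction under any alternative. With normexp 21 lost their call, with median centring 11, and in a test against the minimum fold 15. With no background correction 1 was lost, with the mean of a gene's probes 3, with the scanner's ratio 4 and with the deposited values 5. Leaving out 1 replicate cost 1 to 4. Many named genes were picked for large ratios, so these counts do not stand for all calls. Of all 7014 calls, 4519 were kept with normexp and 5708 with median centring. Among all calls, 6 turned to the other direction with the mean of the probes and 1 without replicate 3. Erbb2, Esrp1, Gata6, Hoxa2, Hoxa4, Irf9, Itga5, Igf1r, Tgm3 and Afp passed with median centring, at −1.26 to −1.01, and so did Phex, at −1.51. Plagl1 was 0.1227 where only probes with both channels well above background were kept, and Psat1 ran from −0.035 without replicate 1 to 2.494 without replicate 4; at 0.1227 and −0.035 another probe stands for the gene. The count of higher genes was 2119 with median centring and 8113 with no minimum fold. The count of lower genes was 2142 with normexp, 5464 with median centring and 8941 with no minimum fold. Leaving out 1 replicate at a time gave 3347 to 3499 higher and 3574 to 3615 lower genes. No paired analysis was possible because only 1 group is used. The slide as a random block was not run, since it could not be fitted with 4 arrays on 3 slides; averaging the arrays of a slide, chosen after seeing the data, gave 3481 and 3614. Dyes were not exchanged, so dye and sample cannot be told apart. Dim channels limit the ratios of 1952 genes seen in Cy5 alone and 165 in Cy3 alone to bounds.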

Other observations

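Lists of genes drawn up after the values were seen, because some of their members stood among the highest ratios, describe what else these cells carried; their choice fixes much of their direction and they are no support for it. Of 27 tested genes of gut, liver and foregut endoderm, 17 were higher and 1 lower, with a median of 2.88. The pioneer factor Foxa2 was 5.11, 4.71, 4.95 and 5.00, above 0 on all 4 arrays, and the intestinal cadherin Cdh17 was 5.48, 4.85, 5.07 and 5.29. The homeobox factors Hhex and Cdx2 were higher at 4.23 and 3.34 and the microvillus protein Vil1 at 3.80, whereas the endoderm factors Gata4 at 0.15 and Gata6 at −0.77 were not called and the mucin Muc13 was lower at −1.93, lost at −0.61 with normexp. Of the 27 genes 19 were highest on replicate 1.

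Of 20 tested genes of the cornified envelope, the crosslinked shell of skin keratinocytes, 12 were higher and 0 lower, with a median of 1.77. Beside Sprr1b, the envelope protein Lor was 4.15, and Sprr1a was 2.85. The crosslinking enzymes Tgm1 and Tgm3, at −0.42 and −0.55, were not called, but Tgm1 was called lower at −1.48 with the scanner's ratio. In this list 3 genes were lower with the scanner's ratio and 2 with median centring. Of 12 tested genes known from the 2-cell embryo 9 were higher and 1 lower, with a median of 2.21, and 4 were higher with normexp; Zscan4f was 3.44 and Usp17la 3.50 by its brighter probe and 0.42, short of a call, by its other. These belong to families of near-identical copies, so which copy a probe reads is uncertain.

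Of 32 tested stress response genes, which respond to unfolded proteins or lack of amino acids, 9 were higher and 5 lower, with a median of 0.24 that turned to −0.08 with median centring. Their median SD of 0.338 compares with 0.115 over all genes. The median member lay 0.473 above its own mean on replicate 3 and 0.271 below it on replicate 2. The serine synthesis enzyme Psat1 was 2.41, 2.53, 2.54 and 2.46 by its brightest probe and −0.09 by its other, and without replicate 1 the other is the brighter, at −0.035. The pseudokinase Trib3, not called, was 0.41, −0.06, 1.38 and 0.44. Its value on replicate 3 lies above those of the other arrays.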
